A study of Trametes coccinea with 9 samples.

Results

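Genes 1468135 and 1437297 of the white-rot fungus *Pycnoporus coccineus* encode a putative hydrophobin and a putative thaumatin-like protein. They are the 2 members described here, of 12690 genes counted, and were taken by their gene numbers because their transcripts were nearly absent on maltose and abundant on wood. The strain was CIRM-BRFM 310, a monokaryon, in every culture, grown in liquid medium for 3 days at 30 °C. It was grown on ground and sifted pine (15 g/l, with 2.5 g/l maltose), on Wiley-milled aspen (15 g/l) or on 20 g/l maltose alone, in 3 cultures each. By the methods the aspen medium held as much maltose as the pine medium, and the pine included bark. Wood and a lower supply of maltose cannot be told apart in these media, nor can the wood species be told apart from bark and milling. Each culture gave 1 poly A RNA library with 28399534 to 38654866 mapped reads counted on genes.

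Hydrophobins are small secreted proteins of filamentous fungi with a conserved cysteine pattern. They assemble into amphipathic films at the boundary between water and air or a hydrophobic surface, coat aerial hyphae and spores, and take part in attachment to solid surfaces. Thaumatin-like proteins share the fold of the plant sweet protein thaumatin. In plants they include the osmotins, which respond to pathogens and osmotic stress, and some members bind or cut β-1,3-glucan, a main polymer of the fungal cell wall.

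The hydrophobin transcript was abundant on both woods and close to the detection limit on maltose. Levels are given as CPM, counts scaled to library size with edgeR's TMM factors, with the raw counts behind them. On pine, 1468135 had 369.5, 266.0 and 38.1 CPM in replicates 1, 2 and 3, from 12818, 7779 and 949 reads. On aspen it had 652.2, 528.4 and 622.0 CPM, from 22800, 18910 and 21019 reads. On maltose it had 0.326, 0.0830 and 0.210 CPM, from 11, 3 and 8 reads. The wood and maltose libraries did not come near each other, and pine replicate 3 stood well below the other wood libraries. The means were 224.6 ± 169.5 CPM on pine, 600.9 ± 64.6 CPM on aspen and 0.206 ± 0.121 CPM on maltose (SD, n = 3 each).

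The order of the hydrophobin levels was aspen, then pine, then maltose. The fitted log2 fold change was 10.07 for pine against maltose and 11.49 for aspen against maltose. As a ratio of means this was 1088-fold on pine and 2911-fold on aspen. The lowest and highest ratios between any pine and any maltose library were 117.0 and 4453, and between any aspen and any maltose library 1622 and 7859. The maltose counts behind these ratios summed to 22 reads, with an exact 95% Poisson interval of 13.8 to 33.3. That interval covers counting error only and is narrower than the true one, as reads of a pair entered the counts separately. No test is given for these contrasts, because the gene was chosen from them. RNA came from whole cultures, so more expressing hyphae and more RNA per hypha cannot be told apart.

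The thaumatin-like transcript followed the same broad pattern with tighter replicates on pine. On pine, 1437297 had 373.5, 310.5 and 227.6 CPM, from 12956, 9078 and 5663 reads. Its aspen libraries had 395.4, 297.7 and 407.5 CPM, from 13822, 10654 and 13768 reads. The maltose libraries had 0.178, 0.221 and 0.526 CPM, from 6, 8 and 20 reads. Pine and aspen libraries overlapped, and all of them lay far above maltose. The means were 303.8 ± 73.2 CPM on pine, 366.8 ± 60.2 CPM on aspen and 0.308 ± 0.190 CPM on maltose (SD, n = 3 each).

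For the thaumatin-like gene, the ratio of means against maltose was 985.2 on pine and 1190 on aspen, and the fitted log2 fold changes were 9.91 and 10.18 for the same contrasts. Ratios between single libraries ran from 432.5 to 2102 for pine over maltose and from 565.7 to 2293 for aspen over maltose. The maltose reads summed to 34, with an exact 95% Poisson interval of 23.5 to 47.5. As for the hydrophobin, these contrasts chose the gene and carry no test.

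**Figure D1:**
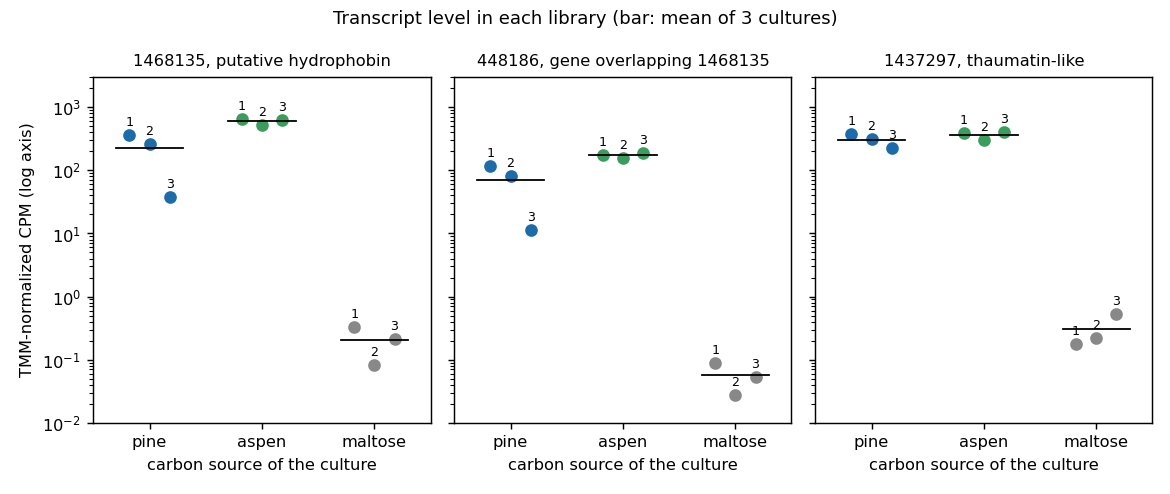
TMM-normalized CPM (log axis) of 1468135, of the gene model 448186 that overlaps it, and of 1437297 in each of the 9 libraries, with the replicate number beside each point and a bar at the mean of 3 cultures. For 1468135 pine replicate 3 lay at 38.1 CPM, below the other wood libraries (266.0 to 652.2 CPM), while for 1437297 the pine and aspen points overlapped.

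Among the 11130 genes tested, the members took places near the top in the size of their difference from maltose. By fitted log2 fold change, the hydrophobin was number 3 for pine and number 2 for aspen, and the thaumatin-like gene number 4 for pine and number 5 for aspen. For scale, 29.1% of the genes tested were called higher on pine than on maltose and 26.3% higher on aspen than on maltose, where a call is a Benjamini-Hochberg adjusted p under 0.05 in edgeR's quasi-likelihood test. Nothing is read from the members' calls beside these shares, since the contrast chose them. Under 1 CPM in every maltose library and over 20 CPM in every wood library, limits set after the values were seen, were 11 genes or 0.0988% of those tested. The members had the highest mean wood levels of these 11, at 412.7 CPM for 1468135 and 335.3 CPM for 1437297, followed by 1477222, of unknown function and with a signal peptide, at 262.1 CPM. These limits resemble the reason for which the members were chosen, so their place is a description only. The overlapping gene model 448186, at 11.5 CPM in pine replicate 3, fell outside them.

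By CPM the members were abundant on wood but not among the few leading transcripts. Ranked by CPM, the hydrophobin was number 524, 812 and 3743 in the pine libraries, 226, 273 and 234 in the aspen libraries, and 10437, 10950 and 10830 in the maltose libraries. The thaumatin-like gene was number 517, 698 and 902 on pine, 438, 566 and 393 on aspen, and 10691, 10612 and 10348 on maltose. Per length the order between the genes differed from that in CPM on pine and on maltose, since the annotated span of the hydrophobin gene is 447 bases and that of the thaumatin-like gene 1514 bases, introns included. Scaled per kilobase of span, the hydrophobin averaged 502.4 CPM per kb on pine, 1344 on aspen and 0.462 on maltose. The thaumatin-like gene averaged 200.7 CPM per kb on pine, 242.3 on aspen and 0.204 on maltose.

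Pine against aspen was the contrast that the choice of the genes did not use. For the hydrophobin, all 3 pine libraries lay below all 3 aspen libraries, with 369.5 CPM as the highest on pine and 528.4 CPM as the lowest on aspen. Such a gap with pine lower was seen in 24.8% of the genes tested. The log2 fold change of pine against aspen was -1.42 (SE 0.55), a ratio of 0.374, with an unadjusted 95% interval from -2.61 to -0.23. The difference did not pass the threshold in edgeR's quasi-likelihood test (Benjamini-Hochberg adjusted p = 0.0679, unadjusted p = 0.0229), whereas 30.3% of all genes were called in this comparison. That background share rested on 3369 genes, and the number called was 2241 without pine replicate 2, 2183 without aspen replicate 1 and 1453 with the prefix of the library code as a term.

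The hydrophobin call turned on single pine libraries. Without pine replicate 3 the log2 fold change shrank to -0.92 and passed the threshold (adjusted p = 0.0332 in edgeR), and without pine replicate 1 it was -1.98 (adjusted p = 0.0263). It also passed in a limma fit to the deposited normalized counts (-1.92, adjusted p = 0.0447). In the Wald test of DESeq2 it was -1.37 with an adjusted p of 0.165. The sign was negative in every alternative, with log2 fold changes from -1.98 to -0.92 and adjusted p from 0.0188 to 0.194.

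For the thaumatin-like gene, no difference between pine and aspen was called. The log2 fold change of pine against aspen was -0.27 (SE 0.27), and the adjusted p in edgeR was 0.481 with an unadjusted p of 0.340. The unadjusted 95% interval, from -0.86 to 0.32, leaves room for a lower or a slightly higher level on pine. Over the alternatives the log2 fold change ran from -0.44 to -0.10 and the adjusted p from 0.256 to 0.841. Whether the pine and aspen contrast of the hydrophobin differs from that of the thaumatin-like gene was not tested.

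Within each library, the raw count of the hydrophobin was set against that of the thaumatin-like gene, a ratio that no scaling between libraries can move. It was 0.989, 0.857 and 0.168 on pine, 1.65, 1.77 and 1.53 on aspen, and 1.83, 0.375 and 0.400 on maltose. The pine ratios all lay below the aspen ratios, with pine replicate 3 far below the other pine libraries. How many pairs of genes show such a gap was not counted, and among single genes 24.8% had one with pine lower. Nothing is therefore read from it. Each maltose ratio rested on few reads. Both transcripts together made up 0.0667%, 0.0481% and 0.0233% of all counts in the pine libraries and 0.108%, 0.0871% and 0.106% in the aspen libraries, against 5.2e-05%, 3.1e-05% and 9.4e-05% in the maltose libraries.

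**Figure D2:**
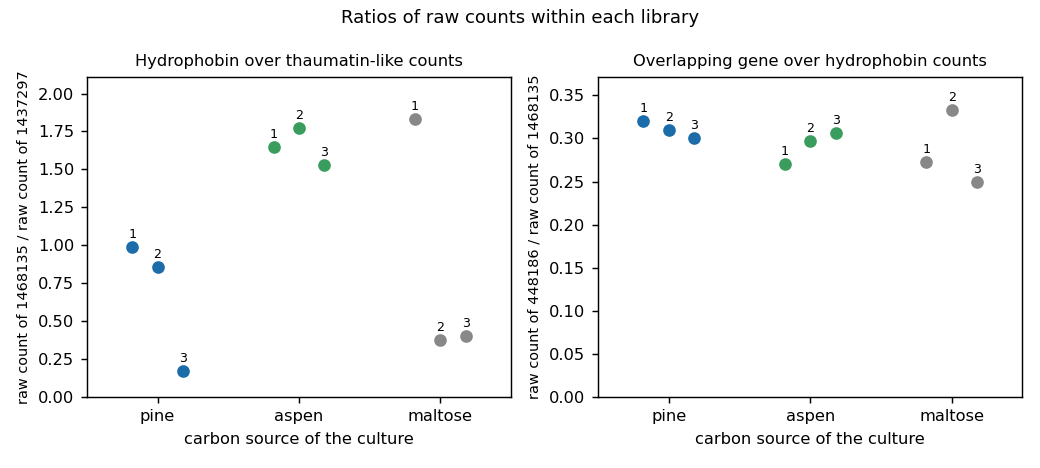
Ratios of raw counts within each library, on linear axes from 0, with the replicate number beside each point. The left panel divides the hydrophobin by the thaumatin-like count, 0.168 to 0.989 on pine against 1.53 to 1.77 on aspen, and the right panel divides the count of the overlapping gene 448186 by that of the hydrophobin, which stayed between 0.25 and 0.333 in every library.

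The low hydrophobin level in pine replicate 3 was large beside the values of other genes in that library. It lay 3.04 log2 units below the mean of pine replicates 1 and 2, an 8.33-fold difference, and 16 of the 11130 genes had a lower value on this measure. The thaumatin-like gene lay 0.58 log2 units below that mean. Over all genes tested the median of the same difference was -0.06, and over the 2313 genes called higher on both woods it was -0.08. Pine replicate 3 was the lowest pine library for 39.2% of all genes tested and for 41.8% of those 2313, and had the smallest total count of the series. The spread of the hydrophobin over the pine cultures, a coefficient of variation of 75.5%, was larger on the log2 scale than that of 99.6% of genes. On aspen it was 10.7%, against 24.1% on pine and 16.4% on aspen for the thaumatin-like gene.

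A further gene model, 448186, overlaps the hydrophobin gene by 69 bases and tracked it closely. Its function is unknown, and it has no predicted signal peptide. It had 118.3, 82.4 and 11.5 CPM on pine, 176.7, 156.7 and 190.6 CPM on aspen, and 0.0889, 0.0277 and 0.0526 CPM on maltose, so that pine replicate 3 was low here as well. The maltose values came from 6 reads in all. Its log2 fold change was 10.22 for pine against maltose and 11.52 for aspen against maltose, numbers 2 and 1 among all genes tested. For pine against aspen it was -1.30 (SE 0.53, adjusted p = 0.0827 in edgeR), and this call too turned on single pine libraries, with -1.89 (adjusted p = 0.0263) without pine replicate 1 and -0.80 (adjusted p = 0.0238) without pine replicate 3. The count of 448186 divided by that of the hydrophobin was 0.320, 0.310 and 0.300 on pine, 0.271, 0.297 and 0.306 on aspen, and 0.273, 0.333 and 0.25 on maltose. The overlap of 69 bases compares with spans of 601 bases for 448186 and 447 bases for the hydrophobin gene. Gene model 448186 also reaches into 1435843, which lies 212 bases from the hydrophobin gene on the same side, so more of its span is shared than the 69 bases. The counting is not stated to have used strand, and how far these gene models share reads was not tested. Gene model 448186 is therefore not taken as separate evidence for the pattern of the hydrophobin.

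The second thaumatin-like gene of the study, 1371481, went the other way. It had 382.3, 356.2 and 523.0 CPM on pine, 413.8, 411.1 and 446.3 CPM on aspen, and 1837, 2214 and 902.0 CPM on maltose. The means were 420.5 ± 89.7 CPM on pine, 423.7 ± 19.5 CPM on aspen and 1651 ± 675.4 CPM on maltose (SD, n = 3 each). It fell on both woods by edgeR's quasi-likelihood test, with log2 fold changes of -1.97 on pine (SE 0.31, adjusted p = 1.2e-04) and -1.96 on aspen (adjusted p = 1.6e-04), and both calls held in each alternative. Of the genes tested, 28.8% were called lower on pine than on maltose and 24.9% lower on aspen than on maltose. Of the 2 thaumatin-like genes, then, 1 was near silent on maltose and the other was expressed in all 3 media and highest on maltose. On wood they were at like CPM, 303.8 on pine and 366.8 on aspen for 1437297, beside 420.5 on pine and 423.7 on aspen for 1371481. Pine against aspen was -0.01 for 1371481 (adjusted p = 0.983 in edgeR), with a sign that changed under DESeq2 size factors.

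Cerato-platanins are small, secreted, cysteine-rich fungal proteins that, like hydrophobins, can assemble at surfaces. The study lists cerato-platanin-like genes 1436014 and 1435742, and neither was called in any of the 3 comparisons. Gene 1436014 was more abundant than the other hydrophobin, thaumatin-like and cerato-platanin-like genes in all 3 media, with 2418 ± 503.0 CPM on pine, 2943 ± 314.2 CPM on aspen and 2512 ± 1304 CPM on maltose (SD, n = 3 each). Its log2 fold change was -0.05 on pine (adjusted p = 0.907 in edgeR) and 0.23 on aspen (adjusted p = 0.626) against maltose, signs that changed in some alternatives. Gene 1435742 had 478.1 ± 104.9 CPM on pine, 310.1 ± 46.7 CPM on aspen and 325.8 ± 55.9 CPM on maltose (SD, n = 3 each). For pine against maltose its log2 fold change was 0.55 (adjusted p = 0.0513 in edgeR), which became 0.65 (adjusted p = 0.0351) without pine replicate 1. For pine against aspen it was 0.62 (adjusted p = 0.0534), which became 0.73 (adjusted p = 0.0336) without pine replicate 1 and 0.63 (adjusted p = 0.0399) without maltose replicate 3. Low levels on maltose were thus seen for the members and for none of these 3 genes.

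**Figure D3:**
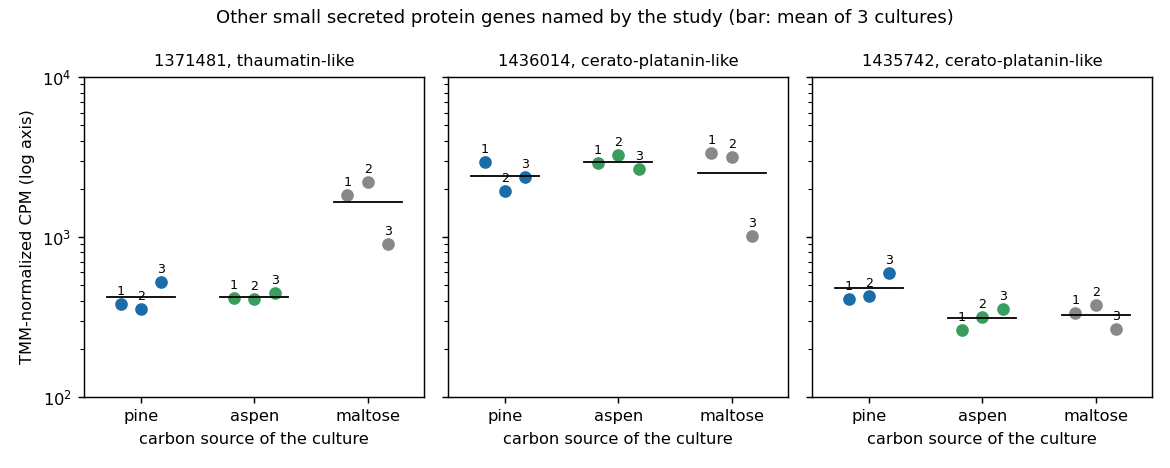
TMM-normalized CPM (log axis) of the other thaumatin-like gene, 1371481, and of the cerato-platanin-like genes 1436014 and 1435742 in each of the 9 libraries, with the replicate number beside each point and a bar at the mean of 3 cultures. For 1371481 the wood libraries ran from 356.2 to 523.0 CPM and the maltose libraries from 902.0 to 2214 CPM. Both cerato-platanin-like genes were well expressed in all 3 media.

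The genes most like each member over the 9 libraries were found by Pearson's r of log2 CPM, a description only, since the libraries fall into wood and maltose groups and share their depth. For the hydrophobin, after the overlapping 448186 (r = 0.999), these were 1439153 (r = 0.997), 1367487 (r = 0.995), 1364528 (r = 0.994) and 1429485 (r = 0.994). Gene 1439153 encodes a protein of unknown function with a signal peptide, 1367487 a member of the carbohydrate esterase family CE16, whose known enzymes remove acetyl groups from plant polysaccharide fragments, and 1364528 a secreted protein with the domain DUF1793. In each of these, pine replicate 3 was the lowest wood library, which their choice by r over the same 9 libraries favours. Gene 1439153 had 131.5, 102.3 and 44.3 CPM on pine, 135.0, 120.3 and 151.1 CPM on aspen, and 3.55, 3.04 and 4.05 CPM on maltose. The esterase gene 1367487 had 30.1, 15.5 and 5.14 CPM on pine, 27.7, 26.8 and 35.6 CPM on aspen, and 0.474, 0.111 and 0.368 CPM on maltose. For 1364528 the levels were 277.5, 219.8 and 83.7 CPM on pine, 259.7, 254.6 and 257.2 CPM on aspen, and 2.01, 1.77 and 2.42 CPM on maltose.

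For the thaumatin-like gene, the most similar genes were 1469439 (r = 0.999), 1434549 (r = 0.997), 1431545 (r = 0.996), 1361878 (r = 0.996) and 1402619 (r = 0.996). Of these, 1361878 encodes a protein of unknown function with a signal peptide. The wood libraries overlapped between pine and aspen for 1469439. For 1402619 all pine libraries lay below the aspen libraries, as in 24.8% of the genes tested. Gene 1469439 had 26.0, 32.0 and 24.4 CPM on pine, 32.2, 30.2 and 29.1 CPM on aspen, and 0.296, 0.332 and 0.579 CPM on maltose. Gene 1402619 had 38.7, 47.1 and 45.6 CPM on pine, 71.8, 63.6 and 66.9 CPM on aspen, and 0.444, 0.636 and 0.842 CPM on maltose. Between the members r was 0.977. The thaumatin-like gene was number 118 of 11129 in the list of the hydrophobin, and the hydrophobin number 230 in that of the thaumatin-like gene. With r over 0.95 there were 447 of 11129 genes for the hydrophobin and 612 of 11129 for the thaumatin-like gene, so that such a value was not limited to the members.

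Of the nearest 3 genes on each side of each member in the reference, 1500831 and 681502 had few reads on wood and on maltose and were not tested. The other neighbours apart from 448186 averaged 1.18 to 103.5 CPM on maltose, where the members averaged 0.206 CPM (1468135) and 0.308 CPM (1437297). Gene 1435843 lies 212 bases from the hydrophobin gene and is overlapped by 448186. It rose on pine (14.3 CPM, against 3.26 CPM on maltose, log2 fold change 2.12, edgeR adjusted p = 1.3e-05). It also rose on aspen (5.81 CPM, log2 fold change 0.83, edgeR adjusted p = 0.0130, but 0.0614 without maltose replicate 1 and 0.0765 with the trim length of the reads as a term). On the other side of the hydrophobin gene, 1368088 fell on pine, with 11.2 CPM against 35.0 CPM on maltose (log2 fold change -1.65, edgeR adjusted p = 2.1e-04). On aspen it had 20.1 CPM (log2 fold change -0.80, edgeR adjusted p = 0.0233), a call lost in 4 alternatives. Gene 1437296, 218 bases from the thaumatin-like gene, fell on pine as well, with 21.4 CPM against 41.5 CPM on maltose (log2 fold change -0.96, edgeR adjusted p = 0.0016). On aspen this gene had 27.7 CPM (log2 fold change -0.58, edgeR adjusted p = 0.0317), a call lost in 5 alternatives. Gene 1426486, also near the thaumatin-like gene, rose on pine (140.9 CPM, log2 fold change 2.00, edgeR adjusted p = 7.0e-05) and on aspen (84.6 CPM, log2 fold change 1.27, adjusted p = 0.0024), against 35.1 CPM on maltose. The largest difference among the tested neighbours other than 448186 was that of 1435846, near the hydrophobin gene, with log2 fold changes of 2.00 for pine and 3.95 for aspen against maltose, still well below those of either member.

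**Figure D4:**
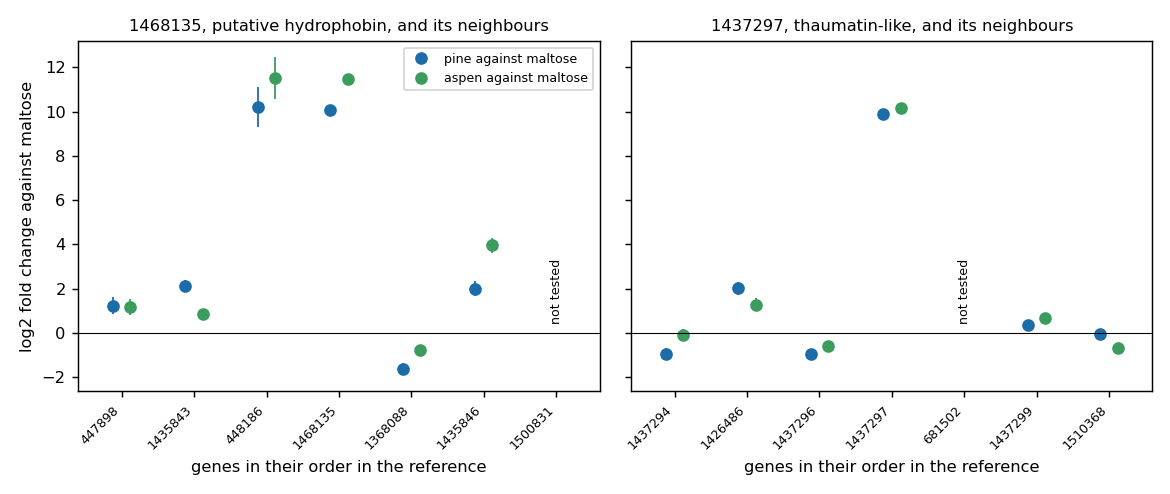
Log2 fold change of pine and of aspen against maltose for each member and the nearest 3 genes on each side, in their order in the reference and not to scale, with bars of 1 SE for genes other than the members (shorter than the point where none is seen). The members and the overlapping 448186 lay between 9.91 and 11.52, and the other tested neighbours between -1.65 and 3.95.

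The members also belong to lists that the study drew from these cultures, which are not independent of the data. The thaumatin-like gene is 1 of 48 proteins of unknown or hypothetical function found in the secretomes, the proteins released into the medium, and all 48 transcripts were tested. On pine 26 (54.2%) were called higher and 8 (16.7%) lower than on maltose, against 29.1% and 28.8% of all genes tested, with a median log2 fold change of 0.75 beside -0.03 over all genes tested. For aspen against maltose, 23 (47.9%) were called higher and 10 (20.8%) lower, against 26.3% and 24.9% of all genes, with a median of 0.53 beside -0.02. Between pine and aspen 12 were called higher on pine and 5 lower, against 15.2% and 15.1% of all genes, and the 5 became 9 without pine replicate 1 and 3 without aspen replicate 1 or 3. By the mean log2 fold change of both woods, the thaumatin-like gene had the largest rise in this list. After it on this measure came 1364528, with 193.7 CPM on pine and 257.2 CPM on aspen, against 2.07 CPM on maltose, and 1480292, with no conserved domain, at 72.9 CPM on pine and 25.2 CPM on aspen, against 0.647 CPM on maltose. In the other direction, 1369309 had 89.8 CPM on pine and 68.0 CPM on aspen, against 4006 CPM on maltose, and 1378713 had 161.5 CPM on pine and 169.6 CPM on aspen, against 4034 CPM on maltose.

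Both members are among 298 transcripts of unknown function with a predicted signal peptide, of which 297 were tested. On pine 162 (54.5%) were called higher and 66 (22.2%) lower than on maltose, against 29.1% and 28.8% of all genes tested, with a median log2 fold change of 0.98 beside -0.03. On aspen 157 (52.9%) were called higher and 65 (21.9%) lower than on maltose, against 26.3% and 24.9% of all genes, with a median of 0.85 beside -0.02. Between pine and aspen 77 (25.9%) were called higher on pine, or 51 without aspen replicate 2, and 41 (13.8%) lower, against 15.2% and 15.1% of all genes, so that the share lower on pine was near that of all genes. By the mean log2 fold change of both woods, the hydrophobin had the largest rise in this list. Gene 1477222 came next, ahead of the thaumatin-like gene. Gene 1477222 had 481.3, 301.7 and 297.3 CPM on pine, 179.3, 144.5 and 168.5 CPM on aspen, and 0.118, 0.0553 and 0.316 CPM on maltose. For pine against aspen its log2 fold change was 1.13 (adjusted p = 0.0113 in edgeR), where 15.2% of all genes were called higher on pine. The hydrophobin had -1.42 in this contrast and was not called. The deepest falls were those of 825568, with 0.370 CPM on pine and 0.180 CPM on aspen, against 22.0 CPM on maltose, and of 1430780, with 0.679 CPM on pine and 0.481 CPM on aspen, against 28.1 CPM on maltose.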

How the data were processed

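Poly A RNA of 9 cultures was sequenced as paired reads. Per the labels and methods, the authors used TopHat2 for mapping to the strain's own genome, HTSeq for counts per gene and DESeq for normalization. The submitters' processing notes give DESeq version 1.5, and the methods give that version number for DESeq2, used for their tests. The deposited raw counts cover 12690 genes, of which 838 had no count. The deposited normalized counts, a signal the authors made by multiplying each library by 1 constant (0.99 to 1.59), cover 11202 genes and served only an alternative.

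Raw counts were analysed in R 4.3.3 with edgeR 4.0.16. Genes with a mean count under 5 were left out, which kept 11130. TMM factors were 0.835 to 0.897 for pine, 1.03 to 1.05 for aspen and 1.03 to 1.27 for maltose. One quasi-likelihood model with 3 groups was fitted to all libraries, p-values were adjusted by Benjamini-Hochberg over all genes tested, and calls were made at 0.05. Standard errors (SE) were derived from the F statistic, as |log2 fold change| over its square root. The biological coefficient of variation was 0.244. The fit was tested on simulated data with the same spread between replicates for all genes. That setting does not cover genes as variable as the hydrophobin on pine. Where no tool is named beside an adjusted p, it is edgeR's.

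The genes, lists and tests were chosen with earlier results of these data known. Named were the members, the study's thaumatin-like and cerato-platanin-like genes, the 3 largest rises and 2 largest falls per list, the 5 most similar genes (log2 CPM, prior count 2) and the nearest 3 genes on each side, from the RefSeq annotation of assembly Pycco1, which matched 12680 gene numbers. A search of protein sequences for further hydrophobins and thaumatin-like proteins was not possible with the tables used here.

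Alternatives were DESeq2 size factors, the Wald test of DESeq2 1.42.0, no count filter, edgeR's filterByExpr, only the libraries compared, the replicate number, the trim length (70 or 78 bases) or the prefix of the library code as a further term, limma 3.58.1 on log2 of the deposited normalized counts + 1, and leaving out each library. Same-numbered libraries did not deviate together throughout, so the numbers were not taken to pair cultures.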

Additional observations from a re-analysis of the deposited data

How the results depend on the processing

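For the hydrophobin, pine against aspen passed the threshold with the replicate block (log2 fold change -1.78, edgeR adjusted p = 0.0188), with limma on the deposited normalized counts (-1.92) and without pine replicate 1 or 3 (leaving out 1 library: -1.98 to -0.92). The cause was not tested. The replicate numbers share only a number (correlations of same-numbered deviations from -0.05 to 0.31), and the block also moved 448186 to -1.72 (adjusted p = 0.0219). The thaumatin-like gene stayed uncalled in every alternative. With the library code prefix as a term, 1453 genes were called between pine and aspen, 5 secretome proteins of unknown function were higher on pine, and of those with a signal peptide 38 were higher and 25 lower. No pine library has the prefix PAU. Leaving out 1 library gave 2183 to 4181 genes called between pine and aspen, 3 to 9 secretome proteins lower on pine, and 51 to 82 signal peptide transcripts higher. Signs changed only for values near 0 that were not called, with the cause not tested. For pine against aspen, 1371481 was 0.0527 with DESeq2 size factors and -0.20 to 0.10 with 1 library left out. For pine against maltose, 1436014 was 0.0608 with the replicate block, 0.0463 with the trim length and -0.43 to 0.20 with 1 library left out, and 1510368, a neighbour of the thaumatin-like gene, was -0.171 to 0.0125 with 1 library left out. For aspen against maltose, 1435742 was 0.0253 with the trim length, 0.0543 with the prefix and -0.20 to 0.0439 with 1 library left out, 1436014 was -0.15 to 0.49 with 1 library left out, and 1437294, another neighbour, was 0.00837 with the prefix and -0.273 to 0.0118 with 1 library left out. With DESeq2 size factors 1435742 was called for pine against maltose (0.60, adjusted p = 0.0440) and pine against aspen (0.69, adjusted p = 0.0426). Depth limits the maltose values, which rest on 3 to 20 reads per library.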
